A study of Bos grunniens with 18 samples.

Results

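Kinesins are motor proteins that hydrolyse ATP to walk along microtubules or to shorten them. Dividing cells use one set to build and pull apart the spindle, ciliated cells use another to carry cargo into the cilium, and most cells use further members to move vesicles, organelles and RNA. The testis draws on all of these activities, since spermatogonia divide by mitosis, spermatocytes divide by meiosis, and spermatids build a flagellum and reshape the nucleus along a microtubule array called the manchette.

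The kinesin family was followed here in yak (Bos grunniens) testis at 3 ages. Healthy males of 1 cooperative gave the testes when they were castrated. The ages were 6 months (Y6M), 18 months (Y18M) and 4 years (Y4Y), and each was represented by 3 separate animals, 9 in all. Each animal gave 1 library of whole testis RNA depleted of ribosomal RNA, so a lower level can reflect fewer cells of a type or less RNA per cell, and bulk libraries cannot tell these apart. The members were all entries of the gene table whose symbol begins with KIF in capitals followed by a number or C, 47 of 22183 entries, carrying 41 symbols. They were sorted by textbook role into 17 spindle entries, 9 cilium entries, 17 transport entries and 4 others.

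Gene libraries held 22.95 to 33.12 M estimated counts. A separate label calls the 4-year samples infancy, the 6-month samples adolescence and the 18-month samples adulthood; it was not used, and markers of haploid germ cells such as protamine 1 summed to 2.03 to 4.16 CPM at 6 months and 2056.2 to 2703.6 CPM at 4 years, with none of the 8 markers at 0 in all libraries. The 18-month libraries stood apart from each other, with 1928.8, 112.0 and 740.6 CPM of the same markers in replicates 1, 2 and 3. Between libraries, levels are given as CPM, the counts scaled to library size after TMM, and tests are edgeR's quasi-likelihood test with Benjamini-Hochberg adjustment over all genes tested, called at an adjusted p under 0.05. Values after ± are the SD for a level and the standard error (SE) for a log2 fold change, with n = 3 per age.

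Of the 47 entries, 44 had enough counts to test. The 3 that did not were duplicates of tested symbols: a KIF13A entry (ENSBTAG00000053912) and a KIF3C entry (ENSBTAG00000053423) were at 0 in all 9 libraries, and a KIF20B entry (ENSBTAG00000051859) held 6.92 estimated counts in 1 library. In all, 5 symbols stood on several identifiers. The 3 entries of KIF14 shared reads, because their estimated counts summed to whole numbers (to 2 decimals) in 9 of 9 libraries, so they are read as 1 gene split in pieces. Each piece still counts as an entry of its own in the counts and medians below, although the pieces are not independent. The KIF1C entry ENSBTAG00000054239 is described in the file as KIF1B, and its counts became whole when those of an entry spelt Kif1b were added, in 7 of the 7 libraries where they were not whole alone. It is called the KIF1B-described entry below, and KIF1C means ENSBTAG00000001349. Entries with mixed-case symbols (Kif17, Kif19 and 2 of Kif1b) lay outside the symbol rule.

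The kinesin family was mostly low at 6 months and high at both later ages. At 18 months against 6 months, 30 of 44 kinesin entries rose, 4 fell and 10 did not pass, where 32.7% of all 16742 tested genes were called higher and 27.1% lower (54.7% of calls higher). In 36 of 44 the libraries of the 2 ages did not overlap, against 65.1% of all genes. With library size alone as the scaling, 72.6% of calls were higher, the median over all genes was 0.43, and 2 kinesins fell. Without Y6M replicate 2 or Y18M replicate 3 only 2 kinesins fell at 18 months, and without Y18M replicate 2 there were 7. At 4 years against 6 months, 31 rose, 7 fell and 6 did not pass, against 36.7% of all genes called higher and 37.2% lower (73.9% in either direction). At this age 40 of 44 did not overlap with 6 months, against 83% of all genes, and with library size alone the median over all genes was 0.23 and 58.3% of calls were higher (49.7% with TMM). The median kinesin log2 fold change was 1.54 at 18 months and 1.83 at 4 years, whereas the median over all tested genes was 0.02 and -0.06. The 2 comparisons share the 6-month libraries. The shares of all genes without overlap also stand beside each single kinesin said below not to overlap with 6 months. Every spindle and cilium kinesin that passed was higher at the later ages, and the falls lay in the transport group and among KIF26A and KIF26B.

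**Figure D1:**
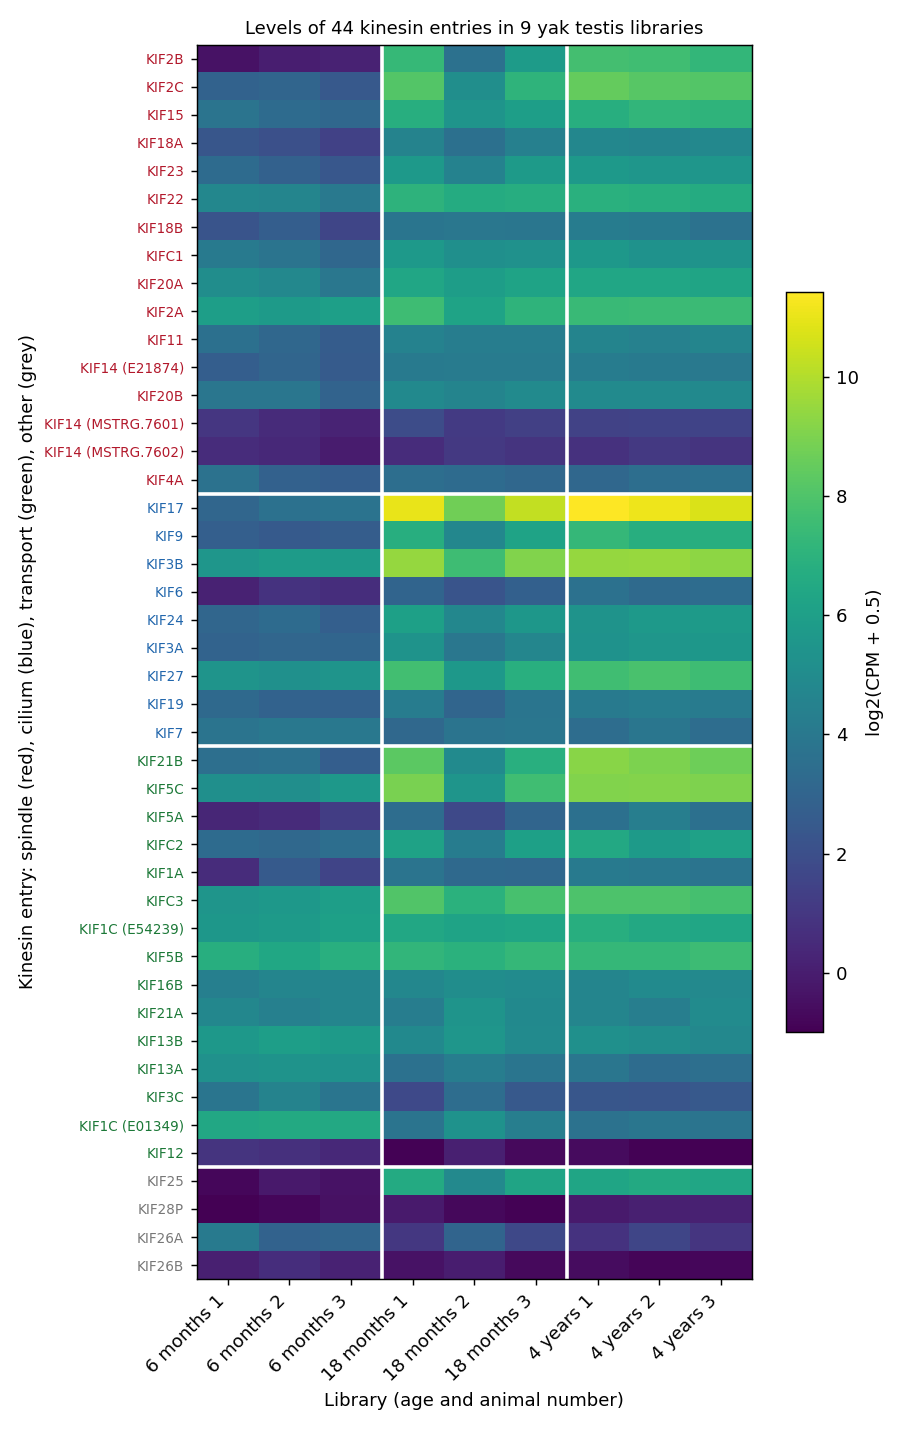
Heat map of the levels of the 44 tested kinesin entries, as log2(CPM + 0.5), in the 9 libraries (columns: age and animal number); rows are grouped by role and sorted by the change from 6 months to 4 years. KIF17 is the brightest row from 18 months on, and 18-month library 2 is closer to the 6-month columns than 18-month libraries 1 and 3 in many rows.

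Per length, the identity of the leading kinesin changed with age. At 6 months the deposited FPKM were led by KIF1C, a motor of Golgi and RNA transport, at 18.2 ± 0.706, and by KIF5B, the ubiquitous conventional kinesin heavy chain, at 18 ± 2.18; these overlapped. The next were the microtubule depolymerase KIF2A at 12.4 ± 0.0497 and the minus-end motor KIFC3 at 11.1 ± 1.87. At 4 years KIF17, a motor linked to ciliary transport and, in male germ cells, to the transcription coactivator ACT, stood far above the rest at 589.1 ± 116.4 FPKM. It was followed by KIF2C at 135.7 ± 16.9, KIF5C at 130.2 ± 5.59, which overlapped, then by KIF3B at 115.3 ± 4, below both in every 4-year library. KIF2B at 82.1 ± 11 and KIF21B at 81.9 ± 12.6 came next and overlapped.

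Summed over all 47 entries, kinesin FPKM was 149.2 to 164.4 at 6 months, 1653.6, 544.7 and 1129.7 in the 18-month replicates 1, 2 and 3, and 1618.2 to 1907.4 at 4 years. KIF17 alone made up 0.926% to 1.49% of that sum at 6 months, 22.8% to 33.2% at 18 months and 29.5% to 37.2% at 4 years. With KIF17 left out, the spindle share rose from 23.7% to 32.9% at 6 months to 39.2% to 40.2% at 4 years, and the transport share went from 50.4% to 59.5% down to 33% to 33.7%. The cilium share without KIF17 was 15.1% to 15.9% at 6 months and 23.1% to 23.2% at 4 years. In each of these shares without KIF17 the 6-month and 4-year libraries did not overlap. With KIF17 kept in, the spindle share was 23.3% to 32.6% at 6 months and 25.2% to 27.6% at 4 years, and these overlapped. The shares describe composition only, since FPKM was not rescaled by TMM.

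**Figure D2:**
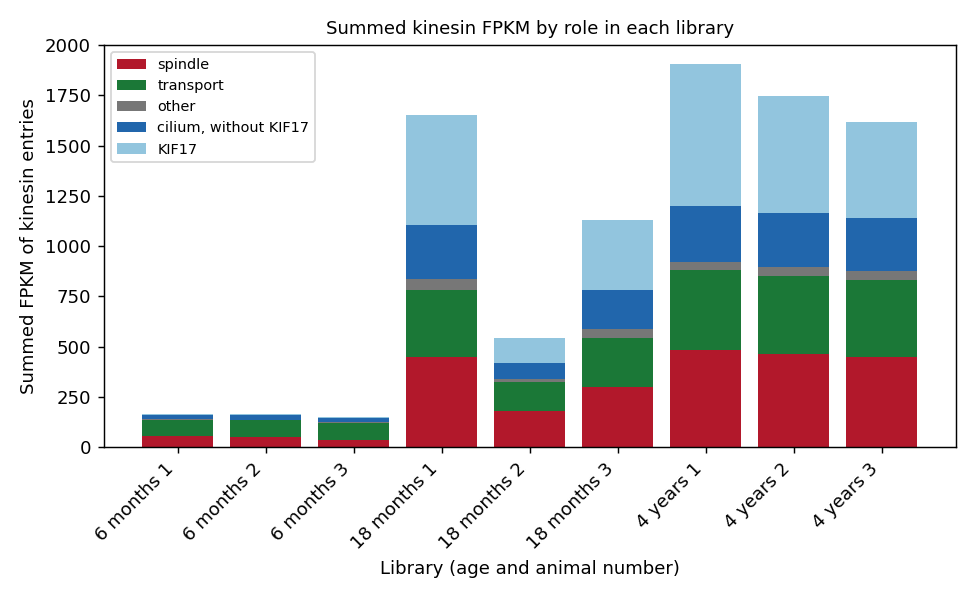
Stacked bars of the summed deposited FPKM of all kinesin entries in each library, split into spindle, transport, other, cilium without KIF17, and KIF17. The 6-month bars reach at most 164.4 FPKM, 18-month library 2 reaches 544.7, and the other bars reach at least 1129.7.

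Among spindle kinesins, 14 of the 16 tested entries rose at 18 months and the same number at 4 years, and none fell. The median log2 fold changes were 1.61 and 1.71. Of all genes, 32.7% were called higher at 18 months and 36.7% at 4 years. The steepest were the kinesin-13 microtubule depolymerases KIF2B and KIF2C. KIF2B (ENSBTAG00000017345) stood at 0.253, 0.52 and 0.64 CPM in the 6-month replicates 1 to 3, at 159.4, 11.8 and 55.5 CPM at 18 months, and at 211.2, 197.0 and 149.8 CPM at 4 years. KIF2C (ENSBTAG00000015280), which corrects kinetochore attachments, stood at 6.97, 7.89 and 4.98 CPM at 6 months, at 273.1, 34.7 and 135.9 CPM at 18 months, and at 366.3, 292.0 and 276.7 CPM at 4 years. In both genes the 6-month libraries lay below all others, and 18-month replicate 2 was the lowest of the older 6. Against 6 months, KIF2B rose by 8.62 ± 1.02 (adjusted p = 0.000133) and KIF2C by 5.56 ± 0.70 (adjusted p = 0.000169) on the log2 scale at 4 years. The related KIF2A (ENSBTAG00000015022), which acts at spindle poles and outside mitosis, was already at 62.4, 54.8 and 63.4 CPM at 6 months, reached 190.6, 74.7 and 137.4 CPM at 18 months, and had 169.2, 179.1 and 175.6 CPM at 4 years. Its rise at 4 years was 1.54 ± 0.30 (adjusted p = 0.0015). Per length at 6 months, KIF2A was at 12.4 ± 0.0497 FPKM, KIF2C at 2.36 ± 0.411 and KIF2B at 0.162 ± 0.0658, while at 4 years KIF2A (58.1 ± 4.43 FPKM) was the lowest of the 3.

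KIF15 and KIF11 both act on spindle microtubules, and KIF11 slides antiparallel ones apart. KIF15 (ENSBTAG00000016726) had 13.3, 9.62 and 8.32 CPM at 6 months, 110.3, 42.9 and 62.6 at 18 months, and 110.1, 144.7 and 136.3 at 4 years, a log2 rise of 3.65 ± 0.37 at 4 years (adjusted p = 7.4e-05). KIF11 (ENSBTAG00000009383) had 11.4, 8.41 and 5.67 CPM at 6 months, 22, 18.6 and 18.5 at 18 months, and 23.9, 21.3 and 24.9 at 4 years, a rise of 1.46 ± 0.26 (adjusted p = 0.00095). At 6 months their CPM ranges overlapped, and at 4 years the lowest KIF15 library was at 110.1 CPM while the highest KIF11 library was at 24.9.

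Kinesins that position chromosomes followed. KIF18A (ENSBTAG00000002117), which damps chromosome oscillation, had 4.48, 3.56 and 2.15 CPM at 6 months, 23.1, 11.5 and 20.5 at 18 months, and 26.1, 24.8 and 27 at 4 years. KIF18B (ENSBTAG00000008088), which shortens astral microtubules, had 4.22, 6.07 and 2.56 CPM at 6 months, 13.8, 14.5 and 14.3 at 18 months, and 18.1, 17.2 and 12.5 at 4 years. KIF22 (ENSBTAG00000013669), a chromosome-bound motor, had 26.3, 24.4 and 15.9 CPM at 6 months, 132.3, 100 and 108.1 at 18 months, and 117.4, 112.4 and 99.1 at 4 years. For KIF18B and KIF22 the 18-month and 4-year ranges overlapped, with 18-month replicate 2 inside the 4-year range. The log2 rises at 4 years were 2.93 ± 0.35 for KIF18A, 1.90 ± 0.32 for KIF18B and 2.30 ± 0.23 for KIF22, with adjusted p of 0.000134, 0.000721 and 6.64e-05. KIFC1 (ENSBTAG00000001631), the minus-end motor that focuses spindle poles and also acts on the spermatid nucleus, had 16.7, 13.4 and 8.36 CPM at 6 months, 50.9, 35.5 and 38.7 at 18 months, and 49.6, 40.2 and 41 at 4 years. It rose by 1.77 ± 0.27 (adjusted p = 0.000445).

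Kinesins of cytokinesis rose as well. KIF23 (ENSBTAG00000009983), the motor of the centralspindlin complex, whose intercellular bridges persist between male germ cells, had 9.63, 6.85 and 4.62 CPM at 6 months, 50, 22.7 and 54.1 at 18 months, and 51.1, 46.4 and 45.4 at 4 years (2.76 ± 0.38 at 4 years, adjusted p = 0.000242). KIF20A (ENSBTAG00000008758) had 33.2, 27.9 and 14.9 CPM at 6 months, 82.9, 59.9 and 73.6 at 18 months, and 82.1, 81.9 and 75.8 at 4 years (1.66 ± 0.28, adjusted p = 0.000743). KIF20B (ENSBTAG00000005708) had 14, 14 and 7.36 CPM at 6 months, 29.6, 23.8 and 30.1 at 18 months, and 30.5, 30.1 and 29.6 at 4 years (1.35 ± 0.26, adjusted p = 0.00138). None of these 3 overlapped between 6 months and a later age, which also held for 65.1% of all genes at 18 months and 83% at 4 years. KIF14 (ENSBTAG00000021874), which recruits citron kinase to the midbody, had 6, 7.72 and 5.39 CPM at 6 months, 16.9, 17.6 and 17.8 at 18 months, and 18, 16.3 and 16 at 4 years (1.40 ± 0.20, adjusted p = 0.000315). Its smaller pieces behaved alike in sign but were weaker: MSTRG.7601 had 1.48, 0.954 and 0.686 CPM at 6 months, 3.22, 1.68 and 2.04 at 18 months, and 2.25, 2.3 and 2.3 at 4 years (1.13 ± 0.41, adjusted p = 0.033), and MSTRG.7602 did not pass (0.81 ± 0.43, adjusted p = 0.116). The MSTRG.7601 call at 4 years was lost without Y6M replicate 2 or 3 or without any Y4Y library, with adjusted p from 0.0699 to 0.103, and its 18-month call (adjusted p = 0.0378) without Y6M replicate 2 or 3, Y18M replicate 1 or 3 or any Y4Y library, with adjusted p from 0.058 to 0.122.

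KIF4A (ENSBTAG00000012861), the chromokinesin of the central spindle, was the other entry that did not pass. It had 12.3, 6.72 and 5.99 CPM at 6 months, 10.6, 9.68 and 8.46 at 18 months, and 8.27, 10.6 and 11.5 at 4 years, and the ages overlapped. Its log2 difference was 0.20 ± 0.31 at 18 months and 0.28 ± 0.31 at 4 years (adjusted p = 0.43).

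The partners of the spindle kinesins showed a like direction. Of 17 listed genes, including the kinesin-7 motor CENPE, 15 rose, 1 fell and 1 did not pass at 4 years, with a median of 2.02. Among all genes 36.7% were called higher and 37.2% lower at 4 years. SKA3 of the outer kinetochore rose by 4.07 ± 0.40, the mitotic kinases PLK1 and AURKA by 3.90 ± 0.41 and 3.74 ± 0.44, and the chromosomal passenger INCENP by 3.24 ± 0.29; CENPE rose by 1.95 ± 0.33. Summed markers of proliferating cells (6 genes, none at 0) were 110.5 to 185.4 CPM at 6 months, 234.6 to 421.7 at 18 months and 369.0 to 407.6 at 4 years, and those of meiotic germ cells (8 genes, none at 0) were 8.96 to 18.2, 636.8 to 1350.2 and 1247.1 to 1395.0 CPM. The part of these cell populations in the spindle kinesin differences was not tested.

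Cilium kinesins rose in 8 of 9 cases at both later ages, against 32.7% and 36.7% of all genes called higher. Their medians were 2.54 at 18 months and 2.59 at 4 years, and KIF7 did not pass. KIF17 (ENSBTAG00000017644) had 8.03, 11.8 and 12.6 CPM at 6 months, 2088.0, 429.8 and 1246.0 at 18 months, and 2766.7, 2247.1 and 1710.9 at 4 years. All older libraries lay far above the 6-month ones, and 18-month replicate 2 was the lowest of them. The log2 rise was 6.86 ± 0.63 at 18 months (adjusted p = 8.14e-05) and 7.70 ± 0.66 at 4 years (adjusted p = 4.15e-05). Counts of KIF17 and the mixed-case entry Kif17 summed to whole numbers in 6 of the 7 libraries where they were not whole alone. Kif17 held 0.8% of their joint counts.

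The heterotrimeric kinesin-2 KIF3A, KIF3B and KAP (gene KIFAP3) drives anterograde transport into the cilium. KIF3A (ENSBTAG00000025477) had 7.27, 8.02 and 7.77 CPM at 6 months, 41.3, 15 and 25.8 at 18 months, and 40.3, 46.5 and 47.1 at 4 years. KIF3B (ENSBTAG00000003215) had 45.4, 55.9 and 54.7 CPM at 6 months, 704.5, 188.2 and 535.0 at 18 months, and 709.0, 735.0 and 640.1 at 4 years. Neither overlapped between 6 months and a later age, as 65.1% of all genes did not at 18 months and 83% at 4 years. The 18-month replicate 2 lay between. At 4 years the log2 rises were 2.54 ± 0.34 for KIF3A (adjusted p = 0.00021), 3.74 ± 0.44 for KIF3B (adjusted p = 0.000131) and 1.25 ± 0.36 for KIFAP3 (adjusted p = 0.0106). KIF3C (ENSBTAG00000019138), the alternative partner of KIF3A, which is best known from neurons, went the other way: it had 13.9, 23.2 and 13.9 CPM at 6 months, 2.82, 10.5 and 5.12 at 18 months, and 4.6, 4.39 and 4.99 at 4 years. Its fall was -1.87 ± 0.45 at 4 years (adjusted p = 0.00501) and -1.47 ± 0.45 at 18 months, where the call was lost without Y6M replicate 2 (adjusted p = 0.0727) or Y18M replicate 3 (adjusted p = 0.0694) under library size scaling (adjusted p = 0.0941) and with only the 2 ages compared (adjusted p = 0.051). Per length, KIF3B exceeded KIF3C at 6 months (6.77 ± 0.783 against 2.43 ± 0.84 FPKM) and by a wider margin at 4 years (115.3 ± 4 against 0.848 ± 0.0904 FPKM).

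KIF9 and KIF6, related kinesins of motile cilia and flagella, rose together. KIF9 (ENSBTAG00000019841) had 6.38, 5.29 and 5.81 CPM at 6 months, 109.0, 26.4 and 73.5 at 18 months, and 153.5, 109.5 and 109.7 at 4 years (4.41 ± 0.49, adjusted p = 0.0001). KIF6 (ENSBTAG00000027197) had 0.634, 1.26 and 1.05 CPM at 6 months, 7.53, 4.14 and 6.48 at 18 months, and 11.9, 9.26 and 10.1 at 4 years (3.40 ± 0.37, adjusted p = 9.3e-05). In both, every 4-year library was above every 18-month library, although neither difference passed after adjustment. Between these ages 25.4% of all genes did not overlap.

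KIF24, KIF27, KIF19 and KIF7 act on cilium assembly, length or Hedgehog signalling rather than as cargo motors. KIF24 (ENSBTAG00000012921), a depolymerase at the mother centriole, had 8.11, 9.84 and 6.31 CPM at 6 months, 67.5, 26.4 and 47.7 at 18 months, and 41.1, 51.8 and 53.4 at 4 years (2.59 ± 0.35, adjusted p = 0.000219). KIF27 (ENSBTAG00000020436), needed for motile cilia, had 43, 37.5 and 42.1 CPM at 6 months, 202.4, 49.8 and 112.9 at 18 months, and 194.1, 233.9 and 191.7 at 4 years (2.34 ± 0.43, adjusted p = 0.00109). Its paralogue KIF7 (ENSBTAG00000002440), the Hedgehog regulator at the cilium tip, had 13.1, 15.2 and 15.3 CPM at 6 months, 8.82, 13.3 and 14.2 at 18 months, and 10.5, 14.4 and 10.4 at 4 years. The KIF7 ages overlapped and the difference of -0.30 ± 0.25 at 4 years did not pass (adjusted p = 0.285); the difference between KIF27 and KIF7 was not tested. KIF19 (ENSBTAG00000004617), which limits cilium length, had 8.96, 7.11 and 6.81 CPM at 6 months, 17.9, 7.77 and 13.7 at 18 months, and 16.1, 18.8 and 17.8 at 4 years. It rose by 1.20 ± 0.30 at 4 years (adjusted p = 0.00603), and its 18-month call of 0.78 ± 0.30 was lost when any 1 library other than Y18M replicate 2 was left out (adjusted p from 0.062 to 0.159). An entry spelt Kif19 held 153.0 to 181.0 counts at 6 months, where KIF19 held 149 to 212, and 585.0 to 1417.0 at 4 years, where KIF19 held 449 to 639, so KIF19 may not be counted whole.

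Genes of intraflagellar transport, the system that kinesin-2 drives, rose alongside. In the IFT-B complex, which travels with kinesin-2 towards the tip, 17 of 18 tested entries rose and IFT46 fell at 4 years (median 1.72). Of all genes 36.7% were called higher and 37.2% lower at 4 years, the shares for the IFT-A and dynein-2 counts below too. IFT52 rose by 3.81 ± 0.45, IFT81 by 2.67 ± 0.33, IFT27 (ENSBTAG00000026657) by 2.37 ± 0.34 and IFT74 by 1.52 ± 0.20, whereas IFT46 went from 66.1 ± 9.77 to 33 ± 2.73 CPM (adjusted p = 0.000651). A scarcer IFT27 entry (ENSBTAG00000006213, 0.379 CPM at 6 months and 1.41 at 4 years) rose by 1.88 ± 0.50. Both IFT27 entries are among the 17. In IFT-A, which serves the return journey, 5 of 6 rose, with IFT140 at 3.89 ± 0.36, IFT122 at 1.94 ± 0.20, WDR35 at 1.66 ± 0.26 and TTC21B at 0.85 ± 0.25. Dynein-2, the motor of that journey, had 4 of 5 members higher: DYNLT2B at 2.58 ± 0.38, DYNC2I1 at 2.13 ± 0.22, the heavy chain DYNC2H1 at 1.71 ± 0.21 and DYNC2I2 at 0.57 ± 0.20. Of 6 listed genes of ciliated duct epithelium, none at 0 in all libraries, only the 5 tested entries were summed. The sums were 28.2 to 39.7 CPM at 6 months, 104.4 to 115.3 at 18 months and 106.4 to 118.1 at 4 years. Of the 5 tested entries 2 rose and 3 did not pass at both ages, against 32.7% and 36.7% of all genes called higher. The part of this epithelium in the cilium kinesin differences was not tested.

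**Figure D3:**
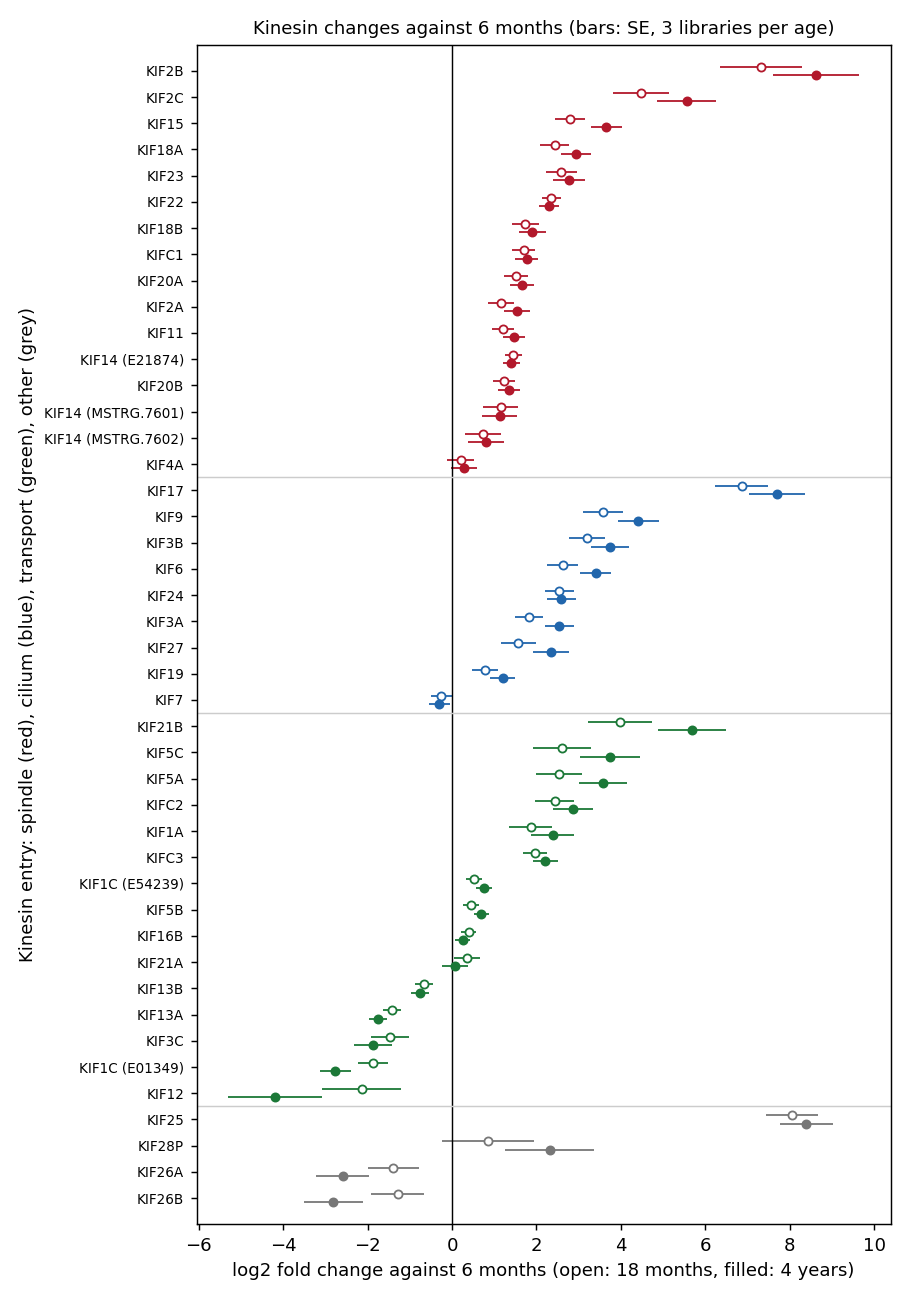
Log2 fold change against 6 months (bars: SE) of each tested kinesin entry at 18 months (open) and 4 years (filled), grouped by role. The spindle and cilium blocks lie to the right of 0 except for KIF7, while the transport block runs from KIF21B at 5.69 down to KIF12 at -4.19.

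Transport kinesins went in both directions: at 18 months 7 of 15 tested entries rose and 4 fell, and at 4 years 8 rose and 5 fell, with medians of 0.45 and 0.69. The falls were close to the shares of all genes called lower (27.1% and 37.2%). Of all genes, 32.7% were called higher at 18 months and 36.7% at 4 years. All 3 heavy chains of conventional kinesin-1 rose at 4 years. KIF5C (ENSBTAG00000018125), rich in motor neurons, had 36.1, 34.9 and 49.6 CPM at 6 months, 487.4, 44.1 and 198.0 at 18 months, and 535.1, 562.3 and 531.0 at 4 years. The 18-month replicate 2 fell within the 6-month range. KIF5C rose by 3.75 ± 0.71 at 4 years (adjusted p = 0.00134). KIF5A (ENSBTAG00000021336), another heavy chain best known from neurons, had 0.76, 0.954 and 1.87 CPM at 6 months, 10.3, 2.84 and 7.68 at 18 months, and 11.5, 19.7 and 11.5 at 4 years (3.57 ± 0.57, adjusted p = 0.000511). KIF5B (ENSBTAG00000002280) went from 102.3 ± 15 to 164.7 ± 14 CPM (0.69 ± 0.18, adjusted p = 0.00675), and at 18 months it missed the threshold (0.45 ± 0.18, adjusted p = 0.0524), passing by DESeq2, with the other scalings and without Y18M replicate 2 (adjusted p = 0.00454). Per length, KIF5B led KIF5C at 6 months (18 ± 2.18 against 6.88 ± 0.974 FPKM) and KIF5C led KIF5B at 4 years (130.2 ± 5.59 against 37.2 ± 4.83 FPKM). Of 8 listed nerve and Schwann cell genes, none at 0 in all libraries, only the 6 tested entries were summed. The sums were 269.8 to 289.6 CPM at 6 months, 85.4 to 107.2 at 18 months and 133.1 to 145.5 at 4 years. They were lower in every older library than at 6 months. At 4 years 3 of the 6 tested entries rose and 2 fell, against 36.7% of all genes higher and 37.2% lower. The part of nerve and Schwann cells in the differences of these motors was not tested.

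KIF21B (ENSBTAG00000047274), a kinesin-4 that pauses microtubule growth, had 11.1, 11.9 and 6.17 CPM at 6 months, 314.2, 30 and 115.8 at 18 months, and 597.6, 505.0 and 405.9 at 4 years. It rose by 3.98 ± 0.75 at 18 months (adjusted p = 0.00191) and by 5.69 ± 0.81 at 4 years (adjusted p = 0.000297), and all 4-year libraries exceeded all 18-month ones. Its paralogue KIF21A (ENSBTAG00000004832) had 26.9, 20.6 and 24.8 CPM at 6 months, 19, 43.3 and 29.5 at 18 months, and 24.4, 19.7 and 31.8 at 4 years, a difference of 0.07 ± 0.31 at 4 years (adjusted p = 0.845). The ages of KIF21A overlapped, and the difference between the paralogues was not tested. At 6 months KIF21A was the higher per length (2.97 ± 0.355 against 1.3 ± 0.453 FPKM), and at 4 years KIF21B was (81.9 ± 12.6 against 4.03 ± 1.13 FPKM).

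The minus-end motors KIFC3 and KIFC2 rose. KIFC3 (ENSBTAG00000007181), linked to cell junctions, had 44.1, 48.5 and 62.4 CPM at 6 months, 263.9, 120.9 and 223.0 at 18 months, and 250.4, 249.3 and 217.8 at 4 years (2.21 ± 0.29, adjusted p = 0.000213). KIFC2 (ENSBTAG00000007753) had 9.67, 8.63 and 10.8 CPM at 6 months, 71.9, 18.4 and 67 at 18 months, and 89.5, 53.6 and 69.2 at 4 years (2.86 ± 0.47, adjusted p = 0.000625). In both, all older libraries exceeded all 6-month ones.

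Kinesin-3 members, which carry vesicles over long distances, split. KIF1A (ENSBTAG00000011538), the synaptic vesicle motor, had 1.01, 5.2 and 2.38 CPM at 6 months, 13.4, 9.13 and 8.75 at 18 months, and 16.7, 15.1 and 13.2 at 4 years (2.39 ± 0.51, adjusted p = 0.00256), and without Y6M replicate 2 its rise was 3.15 ± 0.44 at 4 years and 2.62 ± 0.43 at 18 months, against 1.86 ± 0.50 there with all libraries. The KIF1B-described entry, from 55.8 ± 9.57 to 93.8 ± 16.1 CPM, rose by 0.75 ± 0.19 at 4 years (adjusted p = 0.00613). Its 18-month call (0.52 ± 0.19, adjusted p = 0.0405) was lost without Y6M replicate 1 or 2, Y18M replicate 1 or 3 or Y4Y replicate 2 (adjusted p from 0.0605 to 0.144). KIF1C, by contrast, had 86.9, 94 and 90.8 CPM at 6 months, 13.5, 40.6 and 19.5 at 18 months, and 12.3, 14.2 and 13.2 at 4 years. Its fall was -2.77 ± 0.37 at 4 years (adjusted p = 0.000213). Per length it went from 18.2 ± 0.706 FPKM at 6 months, where it overlapped with KIF5B, to 3.8 ± 0.275 FPKM. KIF13A (ENSBTAG00000019217), which moves endosomes, had 38.1, 41.3 and 39.3 CPM at 6 months, 12, 18.6 and 13.7 at 18 months, and 14, 9.97 and 11.3 at 4 years (-1.75 ± 0.22, adjusted p = 0.000169). KIF13B (ENSBTAG00000017232) went from 55.4 ± 6.77 to 32.6 ± 5.1 CPM (-0.76 ± 0.22, adjusted p = 0.0116), its deposited FPKM were 5.93 ± 0.913 and 5.85 ± 1.2, and under library size scaling the call was lost (-0.48 ± 0.24, adjusted p = 0.0979). Its 18-month call (-0.66 ± 0.22, adjusted p = 0.0289) was lost without Y6M replicate 2 or 3 or Y18M replicate 1 or 3 (adjusted p from 0.061 to 0.104), under library size scaling (0.408) and with only the 2 ages compared (0.0581). KIF16B (ENSBTAG00000000939), a sorting motor of early endosomes, had 20.4, 24.9 and 25 CPM at 6 months, 26.6, 33.6 and 31.8 at 18 months, and 24.7, 30.3 and 28.8 at 4 years. It did not pass at 18 months (0.39 ± 0.18, adjusted p = 0.0853) or at 4 years (0.25 ± 0.18, adjusted p = 0.219), although the 6-month and 18-month libraries did not overlap. With DESeq2, RLE factors and library size alone it was called higher at 18 months (adjusted p of 0.0061, 0.0291 and 0.00809) and at 4 years (0.0129, 0.038 and 0.0332), as it was at 18 months without Y18M replicate 1 (0.0462) and at 4 years with only the 2 ages compared (0.0433). Its deposited FPKM were 4.06 ± 0.419 at 6 months, 9.42 ± 2.1 at 18 months and 10.4 ± 2.13 at 4 years, without overlap between 6 months and a later age. The authors' deposited tables list it as higher at both ages.

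KIF12 (ENSBTAG00000015685), best known from kidney and liver epithelium, was scarce throughout. It had 1.31, 1.13 and 0.868 CPM at 6 months, 0.0332, 0.582 and 0.13 at 18 months, and 0.136, 0.0295 and 0 at 4 years. The fall was -4.19 ± 1.11 at 4 years (adjusted p = 0.00751) and -5.71 ± 1.44 without Y4Y replicate 1; at 18 months it did not pass (adjusted p = 0.0777) unless Y18M replicate 2 was left out (adjusted p = 0.00739).

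Light chains and adaptors link kinesins to cargo. Of 13 such genes, including KIFAP3 of kinesin-2, 6 rose, 4 fell and 3 did not pass at 4 years (median 0.34), close to the 36.7% higher and 37.2% lower among all genes. KTN1, the kinesin receptor kinectin, rose by 2.52 ± 0.35, the scaffold MAPK8IP1 by 2.78 ± 0.37 and the lysosome adaptor PLEKHM2 by 1.86 ± 0.28, and the mitochondrial adaptor TRAK2 fell by 1.73 on the log2 scale. Among light chains, KLC3, known from sperm midpieces, rose by 2.22 ± 0.41 and KLC1 changed by -1.24 ± 0.31, while KLC2 (0.24 ± 0.23) and KLC4 (0.14 ± 0.24) did not pass. In dynein-1 and dynactin, the opposing minus-end machinery, 7 of 20 tested entries rose, 3 fell and 10 did not pass (median 0.27), so the share higher was near that of all genes; DYNC1I1 rose by 2.64 ± 0.38, ACTR10 by 1.43 ± 0.28 and ACTR1A by 1.21 ± 0.21, and ACTR1B changed by -0.85 ± 0.16.

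Of the 4 remaining kinesins, KIF25 (ENSBTAG00000007694), a kinesin-14 of centrosome positioning, was near 0 at 6 months (0.0845, 0.39 and 0.274 CPM). It had 97.8, 28.8 and 75.1 CPM at 18 months and 79.1, 93.3 and 82.6 at 4 years, a log2 rise of 8.39 ± 0.63 (adjusted p = 3.63e-05). KIF26A and KIF26B, kinesin-11 proteins without motor activity, were lower. KIF26A (ENSBTAG00000021904) had 16.2, 7.11 and 7.68 CPM at 6 months, 1.53, 7.53 and 2.79 at 18 months, and 1.26, 2.48 and 1.39 at 4 years (-2.59 ± 0.63, adjusted p = 0.00518). KIF26B (ENSBTAG00000012715) had 0.549, 1.04 and 0.64 CPM at 6 months, 0.265, 0.513 and 0.13 at 18 months, and 0.17, 0.059 and 0.0792 at 4 years (-2.81 ± 0.70, adjusted p = 0.0058). Neither passed at 18 months (adjusted p = 0.0746 and 0.108), and both did without Y18M replicate 2 (0.00429 and 0.0461), KIF26A also by DESeq2 (0.046). KIF28P (ENSBTAG00000049714) stayed under 1 CPM in all 9 libraries and did not pass at 4 years (2.31 ± 1.05, adjusted p = 0.0719), but did by DESeq2 (0.0452), with library size alone (0.0437), with only the 2 ages compared (0.0185), and without Y6M replicate 3 (0.0458) or Y18M replicate 1 (0.0367).

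Marker lists of somatic cells did not all move one way. Summed Sertoli cell markers (7 genes, none at 0) were 4938.1 to 5591.4 CPM at 6 months, 203.5, 946.4 and 403.4 in the 18-month replicates, and 158.9 to 176.6 at 4 years, and fibroblast and peritubular markers (6 genes, none at 0) were 1424.1 to 1765.0, 223.9 to 833.8 and 229.9 to 257.7 CPM. All 7 Sertoli markers fell at 4 years, as did 4 of the 6 fibroblast and peritubular markers, 9 of 9 entries of Leydig cells and 5 of 5 of endothelium. Among all genes 36.7% were called higher and 37.2% lower at that age. Of 11 tested leukocyte entries 5 rose and 5 fell at 4 years, and their markers summed to 101.2 to 166.0 CPM at 6 months and 83.3 to 86.9 at 4 years. In KIF1C, KIF3C, KIF12, KIF13A, KIF13B, KIF26A and KIF26B, as in the Sertoli and the fibroblast and peritubular sums, 18-month replicate 2 was the closest of the 3 to 6 months. This order was not particular to them. Replicate 2 was also closest to 6 months by median over the 5281 genes that rose at least 2-fold by 4 years. Its median position, on the scale described below, was 0.46, against 0.99 and 0.81 in replicates 1 and 3. The part of the somatic cells in the kinesin differences was not tested.

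Between 18 months and 4 years no kinesin passed, where 0.00597% of all genes (1 gene, lower at 4 years) were called. The libraries of 9 of 44 kinesin entries did not overlap, against 25.4% of all genes. At an unadjusted p under 0.05 there were 4 kinesins (KIF6, KIF15, KIF21B and KIF1C) and 3572 genes; DESeq2 called 0 kinesins, with no adjusted value for 3, and 937 genes. Leaving out 1 animal changed this: without Y18M replicate 1, 9 kinesins were called higher at 4 years and 1 lower, among 2247 genes higher and 3360 lower. The 9 were KIF2B, KIF2C and KIF15 of the spindle group, KIF3A, KIF9, KIF17 and KIF27 of the cilium group, and KIF5C and KIF21B of the transport group. In that fit KIF21B was higher by 2.79 ± 0.56 (adjusted p = 0.0108), KIF2B by 2.47 ± 0.59 (adjusted p = 0.0175) and KIF5C by 2.16 ± 0.54 (adjusted p = 0.0204), and KIF1C was lower (-1.18 ± 0.27, adjusted p = 0.0155). With all 9 libraries the KIF21B difference was 1.71 ± 0.68 (adjusted p = 0.204).

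The 18-month animals were also described separately. For each gene, each 18-month library was placed on a scale of log2(CPM + 0.5) on which the 6-month mean is 0 and the 4-year mean is 1. Over the 5281 genes that rose at least 2-fold by 4 years, the median position was 0.99 in replicate 1, 0.46 in replicate 2 and 0.81 in replicate 3. Spindle kinesins among these (14) had medians of 1.00, 0.69 and 0.89, cilium kinesins (8) of 0.99, 0.49 and 0.80, and transport kinesins (6) of 0.95, 0.33 and 0.72. The order of replicates 1, 3 and 2 was the same in all groups, and these positions have no test.

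Within replicate 2 the kinesins were spread over the whole scale. KIF14 (ENSBTAG00000021874) at 1.05, KIF18B at 0.94, KIF22 at 0.94 and KIFC1 at 0.84 were near the 4-year mean in this animal. KIF17 at 0.69 and KIF25 at 0.78 were well on the way. KIF2B at 0.48, KIF2C at 0.43, KIF21B at 0.29 and KIF2A at 0.20 were behind, and KIF27 at 0.12, KIF5C at 0.04 and KIF19 at 0.03 were near the 6-month mean. In replicate 1 all of these genes lay between 0.88 and 1.13. Haploid markers in replicate 2 were at 112.0 CPM and meiotic markers at 636.8 CPM, against 1928.8 and 1350.2 CPM in replicate 1; the part of these cells in the positions was not tested.

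**Figure D4:**
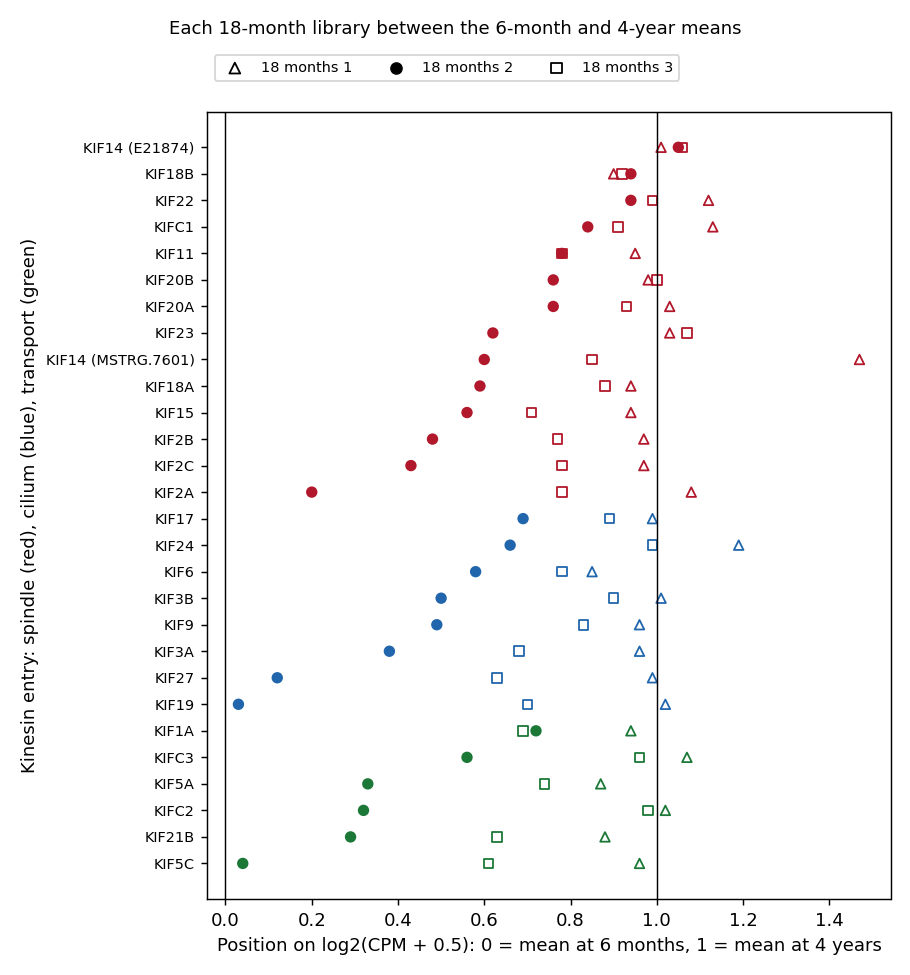
Position of each 18-month library between the 6-month mean (0) and the 4-year mean (1) on log2(CPM + 0.5), for the spindle, cilium and transport kinesins that rose at least 2-fold by 4 years; filled circles are replicate 2, open triangles replicate 1 and open squares replicate 3. Replicate 2 ranges from 0.03 for KIF19 to 1.05 for KIF14. The spindle kinesins lie furthest to the right by median, although KIF2A, KIF2C and KIF2B (0.20, 0.43 and 0.48) lie left of KIF17 (0.69).

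The folds at 18 months of KIF2B, KIF2C, KIF21B and KIF5C depended on which 18-month animal was left out. Without Y18M replicate 1 the rises became 6.16 for KIF2B, 3.69 for KIF2C, 2.91 for KIF21B and 1.60 for KIF5C on the log2 scale, and without Y18M replicate 2 they became 7.95, 5.07, 4.59 and 3.21. The values with all libraries were 7.32 ± 0.98, 4.48 ± 0.66, 3.98 ± 0.75 and 2.60 ± 0.68, and all 4 stayed called in each case.

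Circular RNAs, closed loops made when a downstream splice site joins an upstream one, were read as a separate measure of the same genes. The circRNA table held 311 circRNAs from 33 kinesin symbols among 73679, and 251 of them joined annotated exons. They were sparse: 240 had fewer than 10 reads over all 9 libraries, the median was 4, and 10 circRNAs held 49.4% of the 4763 kinesin back-splice reads. The libraries held 119.8 to 227.2 k back-splice reads of all genes. Scaled to these totals in the same way as CPM but without TMM (RPM), kinesin circRNAs took 2006.7 to 2192.1 at 6 months, 3942.8, 1783.0 and 3010.4 in the 18-month replicates, and 3973.8 to 4775.2 at 4 years. Replicate 2 at 18 months was below all 6-month libraries.

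Only 12 kinesin circRNAs, from 7 symbols, had enough reads to test. At 18 months 1 was called higher and 0 lower, against 4.72% of all tested circRNAs higher and 0.542% lower. At 4 years 3 were called higher and 0 lower, against 15.2% and 5.8%. Between 18 months and 4 years 0 kinesin circRNAs and 0% of all circRNAs passed, with 0 kinesin circRNAs at an unadjusted p under 0.05 and 0 by DESeq2 (298 and 42 over all circRNAs).

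KIF27 gave the most. A circle of 1 exon of 385 bases (novel_circ_068088, chromosome 8, 77168620 to 77169004, minus strand) had 20, 9 and 10 reads at 6 months, 160, 56 and 132 at 18 months, and 114, 194 and 111 at 4 years. It rose by 3.04 ± 0.62 at 18 months (adjusted p = 0.0293) and 3.73 ± 0.63 at 4 years (adjusted p = 0.00923). The 4-year call held with each library left out in turn, and the 18-month call held only without Y18M replicate 2 or Y4Y replicate 2 (otherwise adjusted p from 0.0528 to 0.0905). A longer circle that shares its end coordinate (novel_circ_068083, 77151421 to 77169004, 1674 spliced bases) had 59, 43 and 37 reads, then 52, 14 and 42, then 67, 57 and 37, with a difference of 0.54 ± 0.62 at 4 years (adjusted p = 0.562). Another that shares the start coordinate of the longer circle (novel_circ_068081, 77151421 to 77155705) had 41 reads in all at 6 months, 30 at 18 months and 5 at 4 years (-2.76 ± 1.17, adjusted p = 0.116, passing without Y4Y replicate 2 at 0.0452 and by DESeq2 at 0.0431). In sum over each age, the single-exon circle held 39 reads and the longer circle 139 at 6 months, and 419 and 161 at 4 years. Per 1000 KIF27 gene counts, all KIF27 back-splice reads together went from 116 ± 17.5 at 6 months to 41.3 ± 2.64 at 4 years. The coordinates are those of the circRNA table; the processing notes list UMD3.1, and whether the table follows that build was not settled.

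A KIF6 circle (novel_circ_035702, chromosome 23, 13389447 to 13395538, 461 spliced bases) had 1, 6 and 10 reads at 6 months, 63, 13 and 46 at 18 months, and 96, 52 and 19 at 4 years (3.51 ± 1.01 at 4 years, adjusted p = 0.0342). The KIF6 gene was scarce, and its back-splice reads per 1000 gene counts were 236 ± 186, 225 ± 105 and 204 ± 111 at the 3 ages. A circle of the KIF1B-described entry (novel_circ_017619, chromosome 16, 43280870 to 43328277) had 0 reads in all 6-month libraries, 12, 0 and 2 at 18 months, and 12, 6 and 15 at 4 years. Set against a floor of 3 reads over the 6-month group, it was at least 10.9-fold higher at 4 years (adjusted p = 0.0477). Both this call and that of the KIF6 circle were lost without any 1 library other than Y18M replicates 1 and 2 (adjusted p from 0.0518 to 0.122). The other named circles did not pass at 4 years: those of KIF15 (8, 34 and 39 reads at the 3 ages, adjusted p = 0.0683), KIF3A (8, 38 and 34, 0.126), KIF16B (20, 55 and 66, 0.179, and 29, 40 and 10, 0.314), KIF13B (121, 47 and 35, 0.298) and KIF27 (novel_circ_068078, 43, 39 and 93 reads, 0.245).

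**Figure D5:**
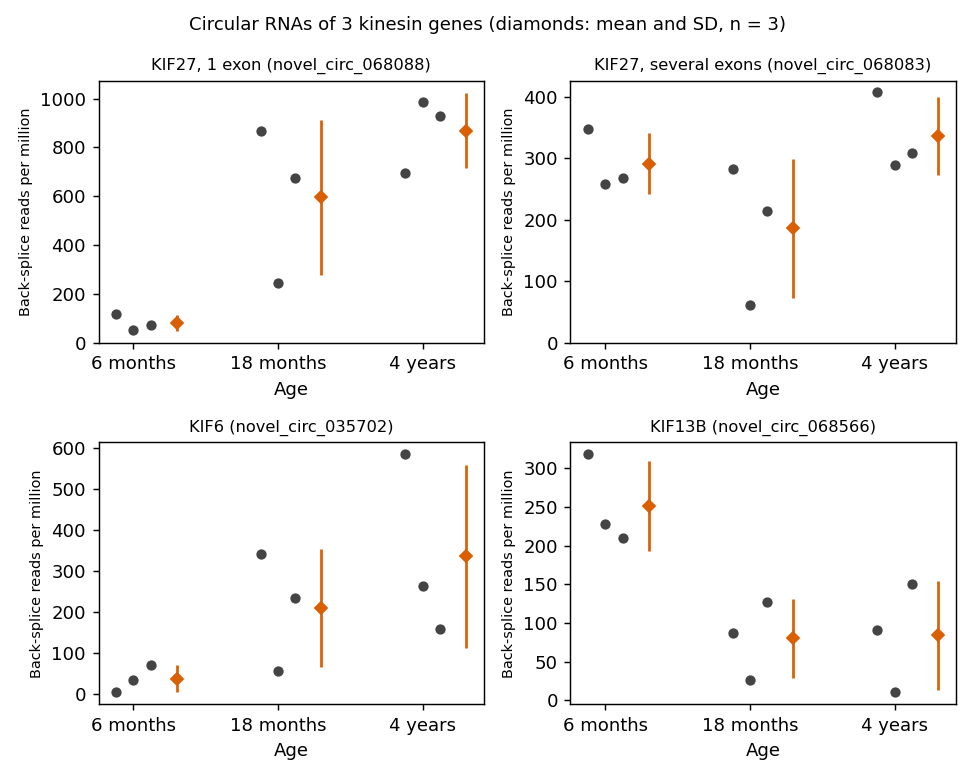
Back-splice RPM in each library (points) with mean and SD (diamonds, n = 3 per age) for a single-exon and a longer circle of KIF27, a KIF6 circle and a KIF13B circle. The single-exon KIF27 circle lies at 54 to 117.9 at 6 months and 694.1 to 985.8 at 4 years, while the longer one overlaps between those ages.

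Back-splice reads were also set against the counts of their genes. KIF17, with the highest FPKM at 4 years, had 18 back-splice reads in all 9 libraries from 4 circRNAs, or 0.0632 ± 0.0586 reads per 1000 gene counts at 4 years. KIF5C had 26 back-splice reads over the 6-month libraries and 11 over the 4-year ones while its gene rose, so its ratio went from 9.42 ± 1.06 to 0.226 ± 0.0357 per 1000 gene counts. KIF3A went from 137 ± 11.6 to 27.6 ± 3.61 and KIF9 from 39.1 ± 12 to 0.269 ± 0.466. The ratio was higher at 4 years for others with few reads, such as KIF20B (6.19 ± 10.7 and 21.1 ± 19.2) and KIF4A (25.3 ± 17.9 and 39 ± 12.4), and KIF18A had no back-splice reads at 6 months and 6.77 ± 3.81 per 1000 gene counts at 4 years. KIF27, with the most reads of all, is given above. For KIF16B the ratio was 50.2 ± 13.9 at 6 months and 54.4 ± 18.5 at 4 years. These ratios set reads that span 1 junction against reads over whole genes and have no test.

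In the authors' deposited tables of differing genes, 31 kinesins were listed at 18 months against 6 months (29 higher, 2 lower) and 39 at 4 years against 6 months (33 higher, 6 lower), and 0 between 18 months and 4 years. Of these, 30 and 37 had the same direction as a call made here. Every kinesin listed by the authors changed at least 2-fold in their tables, whereas the calls made here had no fold cutoff. The authors' log2 ratios for kinesins followed the mean deposited FPKM, which was not rescaled by TMM. The share of all genes that the authors listed is not given here, so their kinesin counts stand without a background.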

How the data were processed

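Testis RNA of 9 yaks, 3 per age, was analysed. Per the submitters' processing notes, the tools were StringTie 1.3.4, HISAT2 2.1.0 and fastp 0.18.0, with build UMD3.1 and no roles stated. How genes and circRNAs were counted is not given in the sources used here. In the authors' gene table, 3137 of 22183 genes have values that are not whole, so these deposited values are estimated counts, and they were rounded here. The authors also deposited FPKM, per the file headers, used here to compare genes and to describe composition. The circRNA table holds the count of back-splice reads the authors deposited. The authors' deposited comparison tables give a log2 ratio and an FDR (an adjusted p-value) and served only for a comparison of calls.

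With R 4.3.3 and edgeR 4.0.16, genes and circRNAs each had 1 model of age over 9 libraries (6 residual degrees of freedom), after filterByExpr and TMM, with glmQLFTest and Benjamini-Hochberg adjustment over 16742 genes or 3877 circRNAs. SE was computed as the log2 fold change over the square root of F. The script was run on simulated counts that had the same spread for all genes and ages. That run therefore cannot speak to the wider spread of the 18-month libraries. Alternatives were DESeq2 1.42.0, RLE factors, library size alone, no low-count filter, only the 2 ages compared, a replicate block, and each library left out. The labels give no batch.

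The members, their roles, the partner lists and the markers were chosen with earlier results of these data known. Every library's value is given for kinesins that were called, changed at least 2-fold and had groups without overlap, and up to 4 partners per list with the smallest p were named; other kinesins with every value and KLC1, KLC2, KLC3, KLC4, KIFAP3, CENPE and IFT46 were added after their values were seen. Of circRNAs the 10 with most reads and those called were named. Replicate numbers mark different animals, and same-numbered libraries correlated at -0.14 to 0.1 in their deviations from the age means, so they were not paired. The small RNA libraries were not used here.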

Additional observations from a re-analysis of the deposited data

How the results depend on the processing

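Counts below are of features called, against 6 months unless stated. KIF7 at 18 months went from -0.26 to 0.15 with library size alone. With each library left out in turn, KIF28P at 18 months ranged from -0.59 (without Y18M replicate 1) to 2.03, and KIF21A at 4 years from -0.12 (without Y4Y replicate 3; -0.03 without Y6M replicate 2) to 0.23; none of these 3 differences passed in any fit.

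At 18 months, library size alone gave 2618 genes lower (4545 with TMM), 2 kinesins lower, both transport, 8 adaptors higher, 8 dynein-1 and dynactin genes higher and 0 lower, and 0 lower among spindle partners and in IFT-A. With only the 2 ages compared there were 2 transport kinesins lower, 3 adaptors higher, 2 dynein-1 and dynactin genes higher and 1 lower, and 0 lower among spindle partners and in IFT-A. DESeq2 gave 1 of the kinesins outside the 3 main roles lower (KIF26A), 0 lower in IFT-A (0 with RLE factors), and 517 circRNAs higher and 133 lower. With the replicate block there were 3 adaptors higher and 0 circRNAs higher or lower, kinesin circRNAs included. At 4 years, 2 kinesins outside the 3 main roles were higher with DESeq2, library size alone and only the 2 ages compared; dynein-1 and dynactin had 1 lower with DESeq2, RLE factors, library size alone and the replicate block; spindle partners had 0 lower with RLE factors and library size alone; and IFT-A had 1 lower with only the 2 ages compared. The replicate block left 104 circRNAs higher (1 of kinesins) and 25 lower; DESeq2 gave 431 lower, 1 of kinesins. Between 18 months and 4 years DESeq2 gave 197 genes higher and 740 lower and 22 circRNAs higher and 20 lower, and 0 genes were lower with only the 2 ages compared. Among single kinesins at 18 months, the replicate block added KIF5B (adjusted p = 0.0494) and lost KIF19 (0.0751) and the KIF1B-described entry (0.075); same-numbered libraries were different animals and were not paired. KIF19 at 18 months was also lost with no low-count filter (0.0533) and with only the 2 ages compared (0.107), as were MSTRG.7601 (0.084) and the KIF1B-described entry (0.0556) with only the 2 ages compared. The block lost the KIF27 circle at 18 months (0.124) and those of KIF6 (0.0892) and the KIF1B-described entry (0.0806) at 4 years; the last was lost with library size alone too (0.0508). DESeq2 added a KIF15 circle at 4 years (0.0144).

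Leaving out each library in turn at 18 months gave 2 to 7 kinesins lower, 2 to 5 of transport and 0 to 2 outside the 3 main roles; adaptors 3 to 7 higher and 1 to 3 lower; dynein-1 and dynactin 2 to 8 higher and 1 to 3 lower; 0 to 1 lower among spindle partners and in IFT-A; and circRNAs 0 to 443 higher (0 to 1 of kinesins) and 0 to 46 lower. At 4 years it gave 1 to 2 kinesins outside the 3 main roles higher, 0 to 1 lower among spindle partners and in IFT-A, 1 to 3 dynein-1 and dynactin genes lower, and circRNAs 242 to 806 higher (1 to 3 of kinesins) and 79 to 297 lower (0 to 1 of kinesins). Between 18 months and 4 years, each upper end without Y18M replicate 1, it gave 0 to 2247 genes higher and 0 to 3360 lower, 0 to 9 kinesins higher (spindle 0 to 3, cilium 0 to 4, transport 0 to 2) and 0 to 1 lower (transport), adaptors 0 to 3 higher and 0 to 2 lower, spindle partners 0 to 2, IFT-B 0 to 5, dynein-2 0 to 1 and dynein-1 and dynactin 0 to 4 higher and 0 to 1 lower, and 0 to 1 circRNAs lower. The causes were not tested.

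The 3 animals per age limit the precision of every difference, and most kinesin circRNAs had too few reads to test.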
